A study of Mus musculus with 2 samples.

Results

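B cells were 143 of the 22611 barcodes that passed the cell filters in single-cell libraries of mouse mandibular lymph node stroma. A barcode passed when 500 or more genes were detected in it and mitochondrial genes took no more than 10% of its UMIs (unique molecular identifiers, each a counted RNA molecule). It counted as a B cell with at least 2 UMIs of Cd79a and Ms4a1 together and none of Pecam1, Prox1, Cd3d, Cd3e or Cd3g. Cd79a encodes a signalling chain of the B cell receptor and Ms4a1 encodes CD20. Pecam1 was taken as a mark of endothelium, Prox1 of lymphatic endothelium, and the Cd3 genes of T cells.

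B cells mature in the bone marrow and recirculate through lymph nodes, which they enter from blood across high endothelial venules. In the node they gather in follicles, drawn by the chemokine CXCL13, and leave through lymphatic sinuses along gradients of sphingosine-1-phosphate. They present antigen on MHC class II, and activated B cells may divide in germinal centres or become antibody-secreting plasma cells.

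The sham group was mice given a sham operation. The SAH group was mice given a subarachnoid haemorrhage by infusing their own blood. Nodes of 20 mice were pooled in each group 24 h after surgery, and each pool gave 1 library. Strain, age and sex are not given in the sources used here, and nothing in the labels distinguishes the groups apart from the operation. Cells were depleted with CD45 microbeads, and cells binding antibodies to CD31 or PDPN were then enriched. The labels call both libraries lymphatic endothelial cells, so the leukocytes described here had passed a depletion meant to remove them and an enrichment aimed at stromal surface proteins. CD45 is the protein of Ptprc. With 1 library per group there is no replicate check: every difference below is between these 2 libraries, and the 95% intervals, which take in the error of counting alone, say nothing of the spread between mice.

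After the filters, 11157 sham and 11454 SAH barcodes were left, with median depths of 5039 and 5747 UMIs. Blood endothelial barcodes, defined by at least 2 Pecam1 UMIs and no Prox1, Cd79a, Ms4a1 or Cd3 UMI, were 5831 and 5876 of these and serve below as the class to compare with. Some 76 barcode sequences occurred in both libraries, and 2 B cells carried a sequence also present in the other library.

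B cells numbered 99 in the sham library, which was 0.887% of its barcodes (exact binomial interval 0.722% to 1.08%), and 44 in the SAH library, 0.384% (0.279% to 0.515%). The SAH share was 0.433 of the sham share (0.296 to 0.623). T cells, chosen by the same kind of rule, were also fewer in the SAH library, with 67 sham barcodes (0.601%) and 19 SAH barcodes (0.166%). The ratio of the shares was 0.276 (0.157 to 0.465) for T cells. These shares are of cells left after depletion and enrichment, so a difference in depletion and a difference in the nodes cannot be told apart. The order of the libraries also turned with the mitochondrial limit. At 5% in place of 10%, 9 sham B cells (0.143%) and 18 SAH B cells (0.216%) were left, and that limit lies below the median mitochondrial share of B cells in either library, 6.70% in sham and 5.64% in SAH.

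The B cells were shallow compared with the other barcodes. Their median depth was 1937 UMIs and 852 genes in sham and 2261 UMIs and 956 genes in SAH, against 4753 and 4871 UMIs in blood endothelial barcodes. Summed over cells, they gave 251276 UMIs in sham and 139635 in SAH. The marker threshold cut through few barcodes: 4 sham and 2 SAH B cells sat exactly at 2 marker UMIs, and 4 sham and 5 SAH barcodes met every other condition with 1. The condition on Pecam1 cut through more. Of the barcodes with at least 2 marker UMIs that passed the filters, 126 of 229 in sham and 85 of 133 in SAH held a Pecam1 UMI and were left out. Those had median depths of 7287 and 7680 UMIs, and whether B cells were among them was not tested.

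The B cell label was checked against genes that the rule did not use. Cd79b, the partner chain of Cd79a, was detected in 92.9% of the sham and 86.4% of the SAH B cells, against 0.223% and 0.494% of blood endothelial barcodes. Fcmr, a receptor for IgM, was detected in 76.8% and 70.5%, against 0.0514% and 0.119%. Cd74, the invariant chain of MHC class II, was detected in all 99 and all 44 B cells, and in 20.9% and 24.5% of blood endothelial barcodes. Ptprc was detected in 56.6% and 70.5% of B cells, so RNA of the depletion target was present in most of them. With each cell thinned to 1000 UMIs, the expected shares were 69.2% and 64.8% for Cd79b, 50.9% and 47.1% for Fcmr, and 34.4% and 37.9% for Ptprc. Thinned shares below are such expected shares. Among the 28 B-lineage genes measured, Ebf1, a transcription factor of early B cell development, was at 1759 CPM (counts per 1000000 UMIs summed over the B cells of a library) in sham and 1189 CPM in SAH. Ebf1 is not particular to B cells here, since 79.5% and 74.1% of blood endothelial barcodes had a UMI of it. Cd79a itself, used by the rule, stood at 507 UMIs over the sham and 393 over the SAH B cells, or 2018 and 2814 CPM. Ms4a1, also used by the rule, stood at 135 and 84 UMIs, or 537 and 602 CPM.

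**Figure D1:**
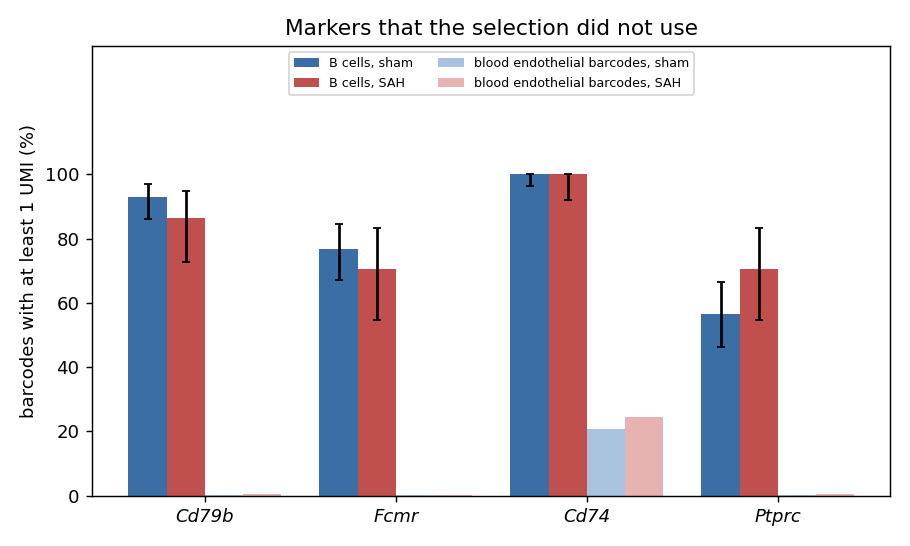
Share of barcodes with at least 1 UMI of Cd79b, Fcmr, Cd74 and Ptprc, in percent, in B cells (dark bars, with exact 95% binomial intervals) and blood endothelial barcodes (pale bars) of the sham and SAH libraries. Cd79b, Fcmr and Ptprc are at 56.6% or more of the B cells and close to 0 in the endothelial barcodes, while Cd74 is also found in 20.9% and 24.5% of the latter.

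RNA of other leukocytes was looked for with marker lists. The plasmacytoid dendritic cell list had 176 UMIs in 63 sham B cells and 81 in 28 SAH B cells, nearly all of Irf8 (104 and 48) and Tcf4 (70 and 31), transcription factors that B cells also express, and Siglech had none. The macrophage and dendritic cell list had 359 UMIs in 38 sham cells and 114 in 23 SAH cells, of which the protease inhibitor Cst3 made 305 and 107, and C1qa had none. The neutrophil list had 12 UMIs in sham and 33 in SAH, 25 of the latter being Lcn2 in 1 barcode, and S100a9 had none. Lyz2 had 9 UMIs in sham, all in 1 barcode, and 1 in SAH. That sham barcode, of 11835 UMIs, had no Cd79a, 263 UMIs of the macrophage and dendritic cell list and 673 UMIs of MHC class II genes. Stromal RNA was more common. A limit of 2 UMIs over 11 endothelial and fibroblast genes (Cdh5, Kdr, Flt1, Plvap, Col1a1, Col1a2, Col3a1, Dcn, Lyve1, Mmrn1 and Pdgfrb) was passed by 88 of 99 sham B cells and 32 of 44 SAH B cells. The 11 sham barcodes over it had a median depth of 5303 UMIs and the 12 SAH barcodes 4656. They held 73738 of the sham and 66537 of the SAH UMIs, so a large part of each summed profile came from few barcodes. Values within this limit, where 177538 sham and 73098 SAH UMIs are left, are therefore given beside those over all B cells for the main results. Scrublet, a doublet caller, marked 5 sham B cells, all over the limit, and 0 SAH B cells, out of 642 and 838 barcodes marked in the libraries.

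**Figure D2:**
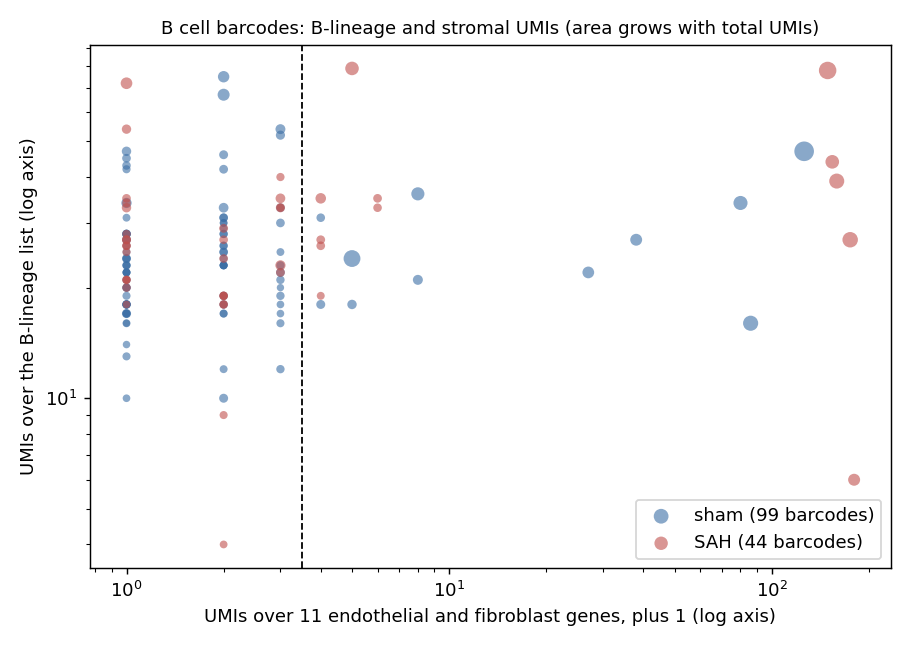
Each point is 1 B cell barcode, with its UMIs over 11 endothelial and fibroblast genes plus 1 (x, log axis) against its UMIs over the B-lineage list (y, log axis), and the point area growing with total UMIs. Sham points are blue and SAH points red, and the dashed line is the limit of 2 stromal UMIs, which 11 sham and 12 SAH barcodes exceed.

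The plasma cell genes showed how few barcodes could carry a sum. Jchain, the chain that joins IgM and IgA units, had 827 UMIs in sham and 4 in SAH, and Slpi, a secreted protease inhibitor, had 1938 and 0. Of the Jchain UMIs, 291 and 535 came from 2 sham barcodes of 9329 and 16471 UMIs, and the same barcodes held 1663 and 275 of the Slpi UMIs. Both also held stromal RNA, 85 and 125 UMIs over the 11 stromal genes. Within the stromal limit Jchain had 1 UMI in each library and Slpi none. The plasma cell list had 10 of 12 measured members at least 1.5-fold lower in the SAH library, where 7.85% of all measured genes were lower. Its median log2 fold was -2.16. Within the limit 3 members were measured, none was past the fold, and the median was -0.34. Edem1, which works in the disposal of misfolded secretory proteins, had 40 UMIs over 14 sham cells and 0 in SAH (at least 7.41-fold lower, taking 3 counts for the library at 0), and 12 and 0 within the limit, too few to count as measured there. Immunoglobulin constant genes were not analysed here.

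A gene was counted as past the fold when its CPM differed at least 1.5-fold between the libraries and the exact counting interval of the fold excluded 1, among genes with at least 30 UMIs over both libraries. Of 1669 such genes, 126 were higher in SAH (7.55%) and 131 lower (7.85%). Within the stromal limit 959 genes were measured, with 47 higher (4.9%) and 52 lower (5.42%). These 4 shares are the background for each count of list members below. Of the 126 higher genes 32 were also past the fold within the limit, 25.4% of the first and 68.1% of the second list. Of the 131 lower genes 35 were, 26.7% and 67.3%. The median log2 fold over all measured genes was -0.07, and -0.05 within the limit.

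Several genes with large folds over all B cells had most of their SAH UMIs in few barcodes. Hist1h2ap, described below, was not among them, with 43.2% of its SAH UMIs in 5 barcodes. Dcn, a fibroblast matrix proteoglycan, was 820 CPM in sham and 4870 CPM in SAH, and 5 SAH barcodes held 97.4% of its 680 UMIs. Within the limit it had 14 and 9 UMIs. C3 (complement), Gsn (gelsolin) and Serpina3n (a serine protease inhibitor) were 3.85-fold, 5.92-fold and 7.80-fold higher, with 92.3%, 97.5% and 90.4% of their SAH UMIs in 5 barcodes. Saa3, an acute-phase protein, had 1 UMI in sham and 275 in SAH, 267 of them in 1 barcode. The chemokine Cxcl10 had 0 and 97 UMIs, 54 of them in 1 barcode. The list of fibroblast genes, as a whole, was at 5647 CPM in sham and 17002 CPM in SAH B cells, and at 890 and 1532 CPM within the limit. Its part in the other differences over all B cells was not tested, which is why the values within the limit stand beside them.

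Some genes were higher by nearly the same fold in every class of cell. Rpl35, a ribosomal protein gene, was 1500 CPM in sham and 2951 CPM in SAH B cells, a fold of 1.97 (1.71 to 2.27), and its fold was 1.89 within the limit, 1.93 in T cells and 1.93 in blood endothelial barcodes. The folds of Rpl38 were 1.91 in B cells, 2.13 within the limit, 2.03 in T cells and 1.93 in endothelial barcodes. Hypk, a partner of a protein acetylase on the ribosome, was lower by the same measure, with folds of 0.411 in B cells, 0.270 within the limit, 0.555 in T cells and 0.410 in endothelial barcodes. Of the 83 ribosomal protein genes measured, 8 were higher and 1 lower in B cells (median log2 fold 0.18), where 7.55% and 7.85% of all genes were, and 11 were higher and 0 lower within the limit (median 0.29), where 4.9% and 5.42% were. Blood endothelial barcodes had 7 higher and 0 lower of the 83, where 9.38% and 4.39% of all genes were. T cells had 8 and 1, where 116 and 140 of 1404 genes were. The fold in blood endothelial barcodes is given below beside the main B cell genes.

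**Figure D3:**
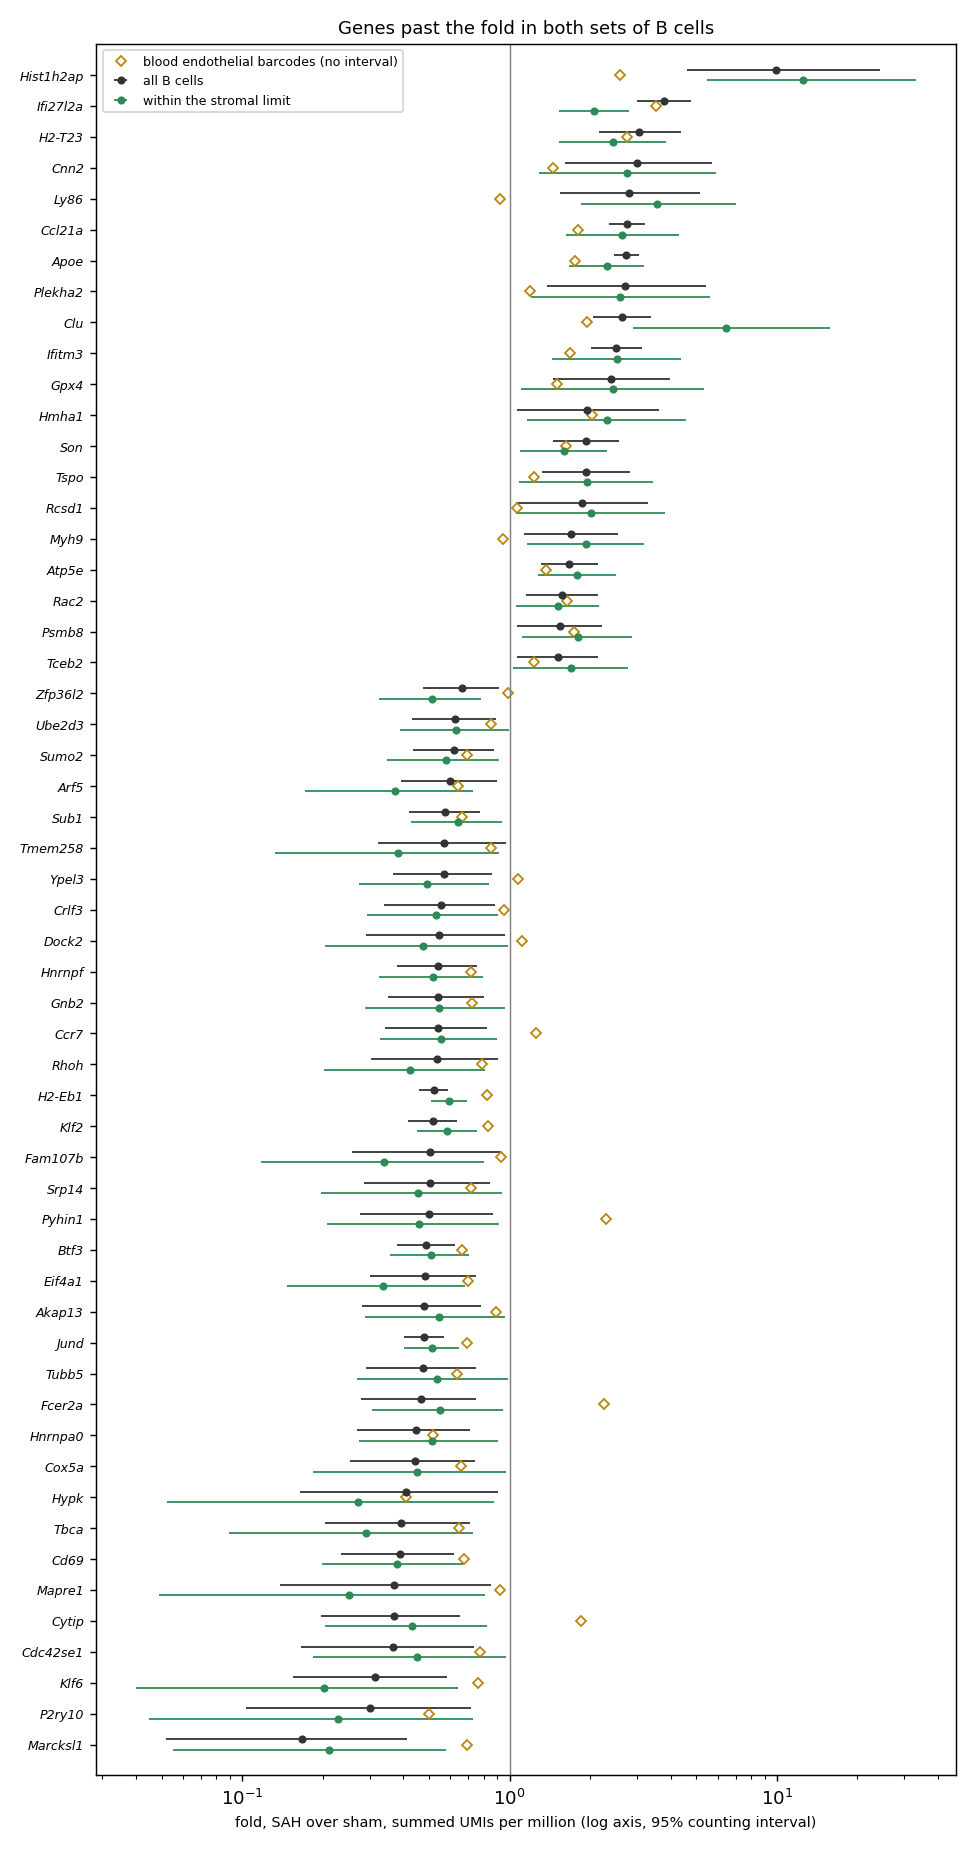
Fold, SAH over sham, of the 55 genes past 1.5-fold both over all B cells (black) and within the stromal limit (green), with 95% counting intervals on a log axis, leaving out ribosomal protein and predicted genes. Open diamonds are the folds in blood endothelial barcodes. There are 20 higher and 35 lower genes. The diamonds of Ly86, Ccr7, Fcer2a, Cytip and Pyhin1, among others, lie on the other side of 1 from the B cell folds. They carry no interval, and the endothelial fold of Ly86 (0.923, 0.385 to 2.19, from 13 and 12 UMIs) cannot be told from 1. Ccr7 had fewer endothelial UMIs still.

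Some of the genes that interferons induce were higher in the SAH B cells. Of the 68 interferon genes listed, 22 were measured in B cells, 9 higher and 1 lower in SAH (median log2 fold 0.50), where 7.55% of all measured genes were higher and 7.85% lower. Within the limit 11 were measured, 4 higher and 0 lower (median 0.27), where 4.9% and 5.42% of all genes were. Those 4 were Ifi27l2a, Psmb8, Ly6e and Ifitm3. The 30-UMI minimum is over both libraries together, so some members reached it only through the library where they were high. The counts past the fold and the median over all B cells are partly set by that. Blood endothelial barcodes, with far more UMIs, had 44 of 67 higher and 0 lower (median 0.73), where 9.38% and 4.39% of all 13263 genes measured were. Pyhin1, an interferon-inducible gene that is not on the list, went the other way in B cells, with a fold of 0.502 and 0.458 within the limit, against 2.30 in blood endothelial barcodes.

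Ifi27l2a, an interferon-induced gene of the inner mitochondrial and nuclear membranes, was 438 CPM in sham and 1654 CPM in SAH, 3.78-fold higher (3.0 to 4.79), with a UMI in 46.5% and 65.9% of B cells, or 30.9% and 48.5% after thinning. Its fold was 2.07 (1.53 to 2.78) within the limit, and 145 of its 231 SAH UMIs came from barcodes over it. The thinned shares within the limit were 33.1% and 43.7%, and 5 barcodes held 66.3% of the 86 SAH UMIs there. Blood endothelial barcodes had a UMI in 20.6% and 52.3%, or 7.20% and 20.5% after thinning, with a fold of 3.52. The Ifi27l2a level of 438 and 1654 CPM in B cells lay beside 536 and 1895 CPM in T cells, 1448 and 4220 CPM in lymphatic endothelial barcodes and 443 and 1663 CPM in the barcodes of no class, and the part of free RNA in it was not tested.

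Psmb8, a subunit of the immunoproteasome, was 275 CPM in sham and 423 CPM in SAH, 1.54-fold higher (1.07 to 2.21) and 1.80-fold within the limit, against 1.75-fold in blood endothelial barcodes. Ly6e, an interferon-induced surface protein, was 1301 and 1790 CPM, a fold of 1.38 (1.16 to 1.63) that fell short of 1.5, and 1.51 (1.23 to 1.85) within the limit, against 1.71 in blood endothelial barcodes. Irf7, a regulator of type I interferon production, was below the 30-UMI minimum with 8 UMIs in sham and 17 in SAH, 3.82-fold (1.56 to 10.2), and 5 and 7 within the limit, against 4.67-fold in blood endothelial barcodes. Its B cell shares were 8.08% and 29.5%, or 2.73% and 12% after thinning, which lie below the 35.7% and 73.7% of blood endothelial barcodes (10.2% and 34.0% thinned), and the part of free RNA was not tested. Ifitm3, a restriction factor of virus entry, was 577 and 1447 CPM in B cells, but 3303 and 5571 CPM in blood endothelial barcodes, 99.0% and 99.6% of which had a UMI.

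Several of the larger B cell folds rested on few barcodes: the 30 SAH UMIs of Rsad2 lay in 2 barcodes and the 31 of Ifit3 in 5. Zbp1, a sensor of nucleic acids, was the lower member, and 78 of its 87 sham UMIs lay in 1 barcode. Within the limit it had 6 and 3 UMIs. Rsad2 and Ifit3 met the 30-UMI minimum through the SAH library alone, and Zbp1 through the sham library. Summed over the list, the genes made 7116 CPM in sham and 12031 CPM in SAH B cells, and 6455 and 9125 CPM within the limit.

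**Figure D4:**
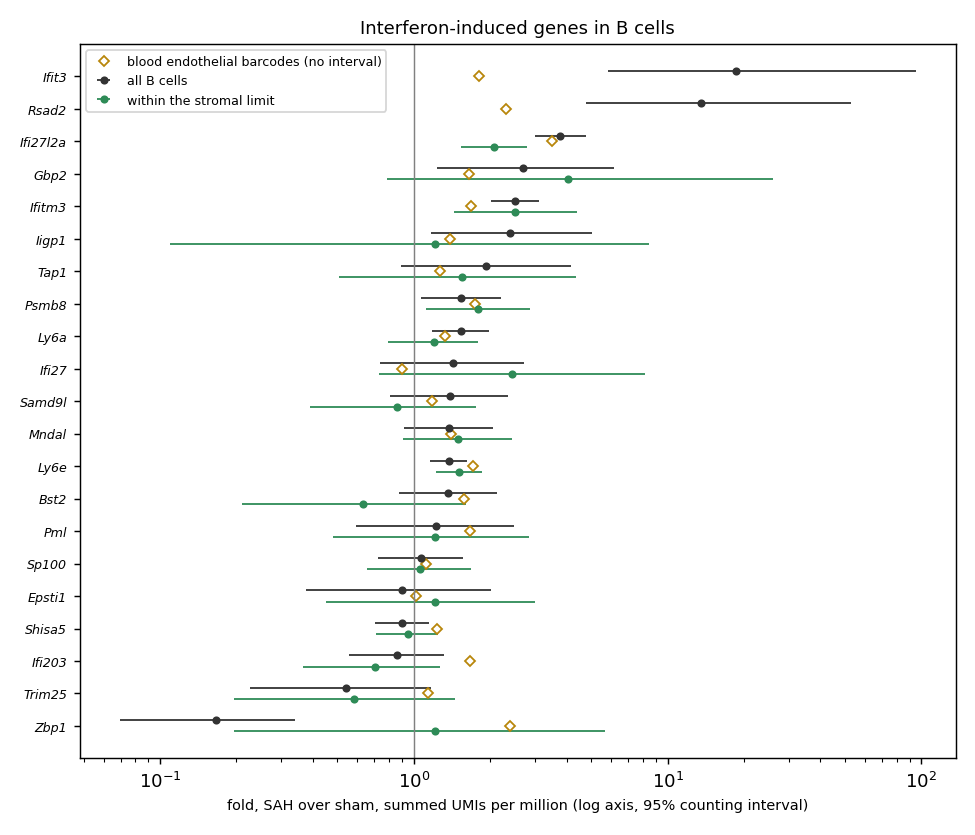
Fold, SAH over sham, of 21 of the 22 interferon-induced genes measured in B cells, over all B cells (black) and within the stromal limit (green), with 95% counting intervals on a log axis, and in blood endothelial barcodes (open diamonds). Ifit3 and Rsad2 have no green point because they had 0 sham UMIs within the limit, and Ifi27l2a, Ifitm3, Psmb8 and Ly6e have green intervals above 1.

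Interferon-stimulated promoters often hold a response element built from repeats of GAAA, and its core was searched for as GAAANNGAAA on both strands of the 250 bases before each start in the RefSeq promoters of build GRCm38.p6. Of the 22 measured interferon genes, 15 had a promoter in the table and 6 of them held the motif, against 3.46% of the 27025 genes in the table. Of the 32 genes higher in both sets, 17 had a promoter and 2 held it, H2-T23 and Rpl38. Of the 35 lower in both sets, 31 had one and 1 held it, Cytip. The sites of 4 genes follow because they set H2-T23, an MHC class I gene higher in both sets, beside Gbp2 and Ifit3, past the fold only over all B cells, and Bst2, past it in neither. Each is 30 bases, 5′ to 3′ on the gene's strand, with the motif in capitals (TTTCNNTTTC is the motif on the other strand).
H2-T23: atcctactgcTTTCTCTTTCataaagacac
Gbp2: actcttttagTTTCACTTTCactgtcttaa
Ifit3: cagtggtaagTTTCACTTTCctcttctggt
Bst2: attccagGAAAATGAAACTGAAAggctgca
These lie at chr17:36032806-36032835 (minus strand), chr3:142620594-142620623 (plus strand), chr19:34583363-34583392 (plus strand) and chr8:71537580-71537609 (minus strand). The motif of H2-T23 begins 124 bases and that of Gbp2 59 bases before the RefSeq start. Gene models differ in these starts: in the GENCODE annotation H2-T23 spans 36029773 to 36032855 and Gbp2 begins at 142620602, so both motifs lie inside the GENCODE gene, while those of Ifit3 and Bst2 lie before it. Bst2 holds 2 overlapping copies, and Ifit3 holds another copy nearer its start. A match describes letters, and no binding was measured.

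Antigen presentation on MHC class II did not move as a block. Cd74 was the most abundant protein-coding gene outside the ribosomal and mitochondrial sets in SAH B cells, at 9798 CPM in sham and 10298 CPM in SAH (fold 1.05, 0.984 to 1.12). H2-Ab1, a beta chain, was 3267 and 2850 CPM, a fold of 0.872. The beta chain H2-Eb1 was lower, 4413 CPM in sham and 2299 CPM in SAH, a fold of 0.521 (0.459 to 0.590), and 0.595 (0.510 to 0.691) within the limit (0.820 in blood endothelial barcodes), with a UMI in 98 of 99 and 42 of 44 cells. The alpha chain H2-Aa was 5763 and 3337 CPM, a fold of 0.579, and 0.693 within the limit, short of the 1.5-fold bound (0.929 in blood endothelial barcodes). The sham barcode with Lyz2 contributed 148 of the 1109 H2-Eb1 and 170 of the 1448 H2-Aa UMIs, the largest count of any barcode, and without it the H2-Eb1 fold was 0.573. Of 14 MHC class II genes measured 0 were higher and 2 lower (median log2 fold -0.17), where 7.55% and 7.85% of all genes were. Within the limit 1 of 13 was lower (median 0.08), where 5.42% of all genes were.

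Of 19 MHC class I genes measured 3 were higher and 0 lower over all B cells (median log2 fold 0.31), where 7.55% and 7.85% of all genes were. Within the limit 2 were higher and 1 lower of 16 (median 0.33), where 4.9% and 5.42% were. H2-T23, a nonclassical class I gene that encodes Qa-1, was 211 CPM in sham and 645 CPM in SAH B cells, a fold of 3.06 (2.15 to 4.38), and 2.43 (1.54 to 3.84) within the limit. It had a UMI in 35 of 99 sham cells and 34 of 44 SAH cells, and in 29 of 88 and 23 of 32 within the limit. After thinning its shares were 18.9% and 43.7%, and 19.4% and 43.3% within the limit. Its fold was 2.76 in blood endothelial barcodes, where 69.8% and 89.7% had a UMI (25.6% and 51.8% thinned). The B cell shares lay below the endothelial ones when thinned too, and the part of free RNA in them was not tested. Near-identical class I copies make the counts of H2 genes uncertain.

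Of the other MHC class I genes, H2-Q4 and Psmb8 were past the fold over all B cells, H2-Q4 with 17 and 22 UMIs. B2m, the shared light chain, was 1461 CPM in sham and 1626 CPM in SAH. H2-K1 was 2348 and 1805 CPM, a fold of 0.769, and 0.656 within the limit, while H2-D1 was 1258 and 1855 CPM, a fold of 1.47 and 1.40. Their folds in blood endothelial barcodes were 0.803 and 1.47.

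Genes of recirculation and of the resting follicular state were among the lower ones. Klf2, a transcription factor that keeps lymphocytes quiescent and sustains homing receptors, was 1636 CPM in sham and 845 CPM in SAH B cells, a fold of 0.517 (0.417 to 0.635), and 0.586 (0.449 to 0.756) within the limit. It is also an endothelial gene, at 1491 and 1242 CPM in blood endothelial barcodes (fold 0.833), and its fold in T cells was 0.406. Ccr7, the receptor that guides lymphocytes to the T cell zone, had 97 UMIs over 55 sham cells and 29 over 18 SAH cells (33.9% and 23.3% of cells after thinning), a fold of 0.538 (0.342 to 0.822) and 0.554 within the limit. Almost no endothelial barcode had a Ccr7 UMI (0.0686% and 0.0851%, 4 and 5 UMIs, fold 1.25), and in T cells its fold was 0.450. Fcer2a, the low-affinity IgE receptor CD23 of mature follicular B cells, had 85 and 22 UMIs, a fold of 0.466 (0.277 to 0.751) and 0.551 within the limit, and endothelial barcodes had 8 and 18 (fold 2.25). At the 5% mitochondrial limit, with 9 and 18 cells, the Fcer2a fold was 2.54. P2ry10, a receptor for lysophospholipids, had 36 and 6 UMIs, a fold of 0.300 (0.103 to 0.719), and 32 and 3 within the limit (0.228, 0.0446 to 0.728). Endothelial barcodes had 6 and 3 P2ry10 UMIs.

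Cd69 was lower as well, and endothelial barcodes nearly lacked it. It encodes an early activation marker that holds lymphocytes in the node by opposing the receptor S1PR1. Cd69 had 102 UMIs in 56 of 99 sham cells and 22 in 15 of 44 SAH cells, or 406 and 158 CPM, a fold of 0.388 (0.233 to 0.620). Within the limit it had 90 and 14 UMIs, a fold of 0.378 (0.199 to 0.667). Its share of B cells was 56.6% and 34.1%, or 36.0% and 17.3% after thinning, and 0.600% and 0.511% of blood endothelial barcodes had a UMI, with a fold of 0.674. The fold in T cells was 1.03 (0.686 to 1.51). S1pr1 itself had 23 and 18 UMIs, a fold of 1.41 (0.716 to 2.73), and 1.86 (0.830 to 4.06) within the limit. Ltb, which encodes lymphotoxin beta, was 700 and 781 CPM, a fold of 1.11 (0.869 to 1.42), and 0.963 (0.711 to 1.29) within the limit.

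Of 13 measured genes of the follicular list 0 were higher and 3 lower (median log2 fold -0.32), where 7.85% of all genes were lower, the 3 being Fcer2a, Ccr7 and Klf2, and the same 3 were lower of 11 within the limit (median -0.27), where 5.42% of all genes were. Of 14 genes of chemokine response and egress 0 were higher and 6 lower (median -0.53), against the same 7.85%: Klf2, Cd69, Ccr7, Cxcr4, P2ry10 and Gpr18. Within the limit 4 of 13 were lower (median -0.24), against 5.42%, and Cxcr4 and Gpr18 were no longer past the fold. These medians changed sign to 0.33 and 0.63 when at least 1000 detected genes were required, which left 23 sham and 17 SAH cells.

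Receptor and signalling genes of B cells differed little. Of the 28 B-lineage genes measured 1 was higher, Ly86, and 1 lower, Pou2af1 (median log2 fold 0.03), where 7.55% and 7.85% of all genes were. Within the limit 2 of 26 were higher, Ly86 and Cd24a (1.99, 1.00 to 3.88), and 0 lower (median 0.02), where 4.9% and 5.42% were. Ly86 encodes MD-1, which pairs with the receptor CD180. It had 20 UMIs in 19 sham cells and 31 in 19 SAH cells, a fold of 2.79 (1.54 to 5.16), and 3.57 (1.85 to 7.05) within the limit. Its shares were 19.2% and 43.2% of B cells, or 8.95% and 23.5% after thinning, and 0.154% and 0.170% of blood endothelial barcodes, which had 13 and 12 UMIs (fold 0.923). Cd180 had 21 and 9 UMIs, a fold of 0.771 (0.311 to 1.76), and 15 and 6 within the limit. Pou2af1, a coactivator at immunoglobulin promoters, was lower at 0.415 (0.177 to 0.872), and 0.654 within the limit, where it was not past the fold. Cd79b was 991 and 1189 CPM (fold 1.20, 0.980 to 1.47), Fcmr 637 and 673 CPM, and Bank1, a scaffold of receptor signalling, 446 and 437 CPM. Of 14 genes of B cell receptor signalling 0 were higher and 1 lower, Prkcb at 0.543 (0.290 to 0.965), and within the limit 0 of 14 were past the fold in either direction. At the 5% mitochondrial limit the B-lineage median was 0.87, from 9 and 18 cells.

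Among immediate-early genes, which follow stimulation and also tissue handling, members went both ways over all B cells. Within the limit, those past the fold were all lower. Jund was 2515 CPM in sham and 1203 CPM in SAH, a fold of 0.478 (0.401 to 0.568) and 0.512 within the limit, and its fold in blood endothelial barcodes was 0.693. Klf6, a zinc finger transcription factor, had 69 and 12 UMIs, a fold of 0.313 (0.154 to 0.582) and 0.202 within the limit, against 0.765 in blood endothelial barcodes. Fos was 1106 and 773 CPM, Jun 597 and 609 CPM, and Junb 1544 and 1533 CPM, and none of these 3 was past the fold. Fosb was 1.93-fold higher over all B cells, but had 13 and 2 UMIs within the limit, a fold of 0.374. Of 23 measured 2 were higher and 3 lower (median log2 fold -0.15), where 7.55% and 7.85% of all genes were. Within the limit 0 and 3 of 15 were (median -0.43), where 4.9% and 5.42% of all genes were. Summed over the list, the fold was 0.842 (0.793 to 0.895), and 0.727 (0.660 to 0.800) within the limit. In the NF-kB list, Nfkbia, the inhibitor that NF-kB itself induces, was 768 and 544 CPM (fold 0.709), and 715 and 287 CPM within the limit, a fold of 0.402 (0.240 to 0.641), against 0.726 in blood endothelial barcodes. Birc3, an inhibitor of cell death and another NF-kB target, had 49 and 16 UMIs (fold 0.588, 0.312 to 1.05), and 40 and 3 within the limit (0.182, 0.0360 to 0.572), against an endothelial fold of 0.986. Both were past the fold only within the limit. Of 7 NF-kB genes measured over all B cells 0 were higher and 1 lower, and within the limit 0 and 2 of 5, against the same shares of all genes.

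Stress and survival lists had members past the fold over all B cells and none among those measured within the limit. Over all B cells 7.55% of all measured genes were higher and 7.85% lower, and within the limit 4.9% and 5.42%. Counts of 1 or 2 members in lists this short were not tested against those shares. Of 10 heat-shock genes 2 were lower, Hsp90aa1 (350 and 201 CPM) and Dnajb1 (41 and 8 UMIs), and 0 of 6 measured within the limit were. Of 8 survival genes of the TNF receptor and Bcl2 families 1 was lower, Bcl2a1b with 32 and 5 UMIs, and 0 of 5 were within the limit. Tsc22d3, which glucocorticoids induce, was 844 and 494 CPM, a fold of 0.586 (0.440 to 0.772), and 0.677 within the limit, short of the bound. Cxcr4 belongs to that list too, with 69 and 22 UMIs, and the list had 2 higher and 2 lower of 11, and 0 of 5 within the limit. Its higher members, Mt1 and Klf9, had 2 UMIs each in SAH B cells within the limit.

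Division genes had few UMIs. Mki67 and Top2a had 0 UMIs in sham and 1 each in SAH. Bcl6, the germinal centre regulator, had 3 and 6 UMIs. Of 5 cell cycle genes measured 0 were higher and 2 lower (median log2 fold -0.64), where 7.55% and 7.85% of all genes were. Tubb5 (tubulin) was lower at 0.475 (0.289 to 0.751), and 0.535 (0.269 to 0.987) within the limit. H2afz (a histone variant) was lower at 0.400 (0.233 to 0.655), but at 0.586 (0.302 to 1.06) within the limit it was not past the fold, which left 1 of 5 lower there. The same list had 22 of 28 genes lower in blood endothelial barcodes, where 4.39% of all measured genes were. In lymphatic endothelial barcodes 17 of 28 were lower, against 600 of all 12569 measured genes. In T cells 6 of 6 were, against 140 of 1404, and 1 sham T cell barcode held 38606 of the 272362 sham T cell UMIs.

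Hist1h2ap, a histone H2A gene, stood apart. It had 8 UMIs in 7 of 99 sham cells and 44 in 23 of 44 SAH cells (3.85% and 32.4% of cells after thinning), a fold of 9.90 (4.61 to 24.3), and 7 and 36 UMIs within the limit, a fold of 12.5. Blood endothelial barcodes had a UMI in 1.30% and 7.52%, with a fold of 2.59 (2.31 to 2.92). The fold was 4.07 (3.34 to 5.0) in lymphatic endothelial barcodes and 6.22 (5.10 to 7.64) in barcodes of no class. T cells had 13 and 5 UMIs, a fold of 1.21 (0.338 to 3.62). Histone genes of this cluster are near-identical, which leaves the count of any single copy uncertain.

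Oxidative phosphorylation genes had a median log2 fold of 0.09 (32 measured, 1 higher, 2 lower), and 0.19 within the limit (24 measured, 1 higher, 1 lower). The genes of the mitochondrial genome had a median of -0.13 (12 measured, 2 higher, 0 lower), and -0.25 within the limit (11 measured, 0 higher, 1 lower). Genes of marginal zone, B1 and memory B cells had a median of 0.15 with 2 higher and 1 lower of 8, and within the limit 0 and 2 of 5, Plac8 and Vim. Toll-like receptor genes had 1 higher of 5, Ly86 again. Among all genes measured in B cells 7.55% were higher and 7.85% lower, and 4.9% and 5.42% within the limit. Tlr9 had 0 UMIs in both libraries, which allows a level of up to 11.9 CPM in sham and 21.5 CPM in SAH (3 counts), and Tlr7 had 0 in sham and 2 in SAH.

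**Figure D5:**
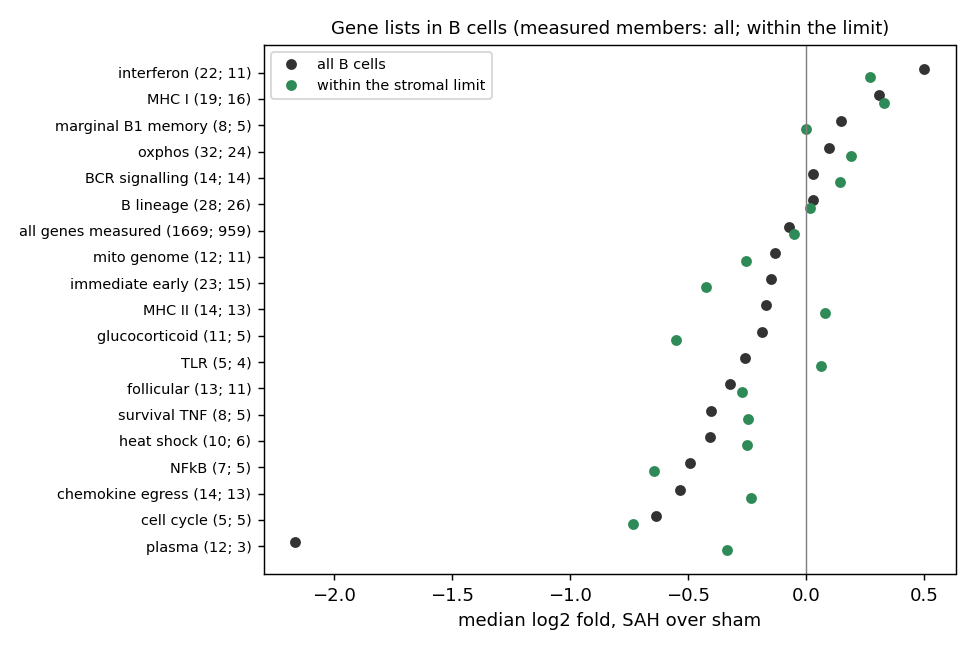
Median log2 fold, SAH over sham, of gene lists and of all measured genes, over all B cells (black) and within the stromal limit (green). The numbers of measured members are in brackets. Lists of other cell types and the germinal centre list, which had few measured members, are not drawn. The plasma cell list lies at -2.16 over all B cells and -0.34 within the limit, and the interferon list at 0.50 and 0.27, while all measured genes lie at -0.07 and -0.05.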

How the data were processed

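Each library's UMI counts per gene and barcode were used as the authors deposited them, 10x counts tagged at the 5′ end, so levels are per UMI total and not per length. Cell Ranger 5.0, STAR and build mm10 are named per the submitters' processing notes. Their parameters are not given in the sources used here. Counts were summed over B cells per library and scaled to CPM. A fold is the SAH level over the sham level. Its 95% interval is exact, from the binomial distribution of a gene's UMIs given their sum. Each group is 1 pool of 20 mice, so no test was possible. A gene needed 30 UMIs over both libraries. Shares have exact Clopper-Pearson intervals. A thinned share is the expected share of cells with a UMI when 1000 UMIs are drawn from each (hypergeometric, 0 B cells left out). It was chosen after seeing the data, in place of 1 random draw per cell, since separate draws differed. Folds after thinning use 1 draw. T cells had at least 2 Cd3 UMIs and no B cell, Pecam1 or Prox1 UMI. Doublets were called with Scrublet in scanpy 1.11.5 but kept in the main result. Python 3.11.15, scipy 1.17.1 and edgeR 4.0.16 (scaling factors only) were used. The fold procedure was tested on simulated data.

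Members, lists and alternatives were chosen with earlier results of these data known. Named genes were the 15 highest levels, the 12 highest and 12 lowest folds with at least 50 CPM and 10 cells (genes over 5 times higher in other classes set apart), and list members past the fold. Genes named outside this rule were chosen after their values were seen. Some single genes are not reported here. Of 611 distinct genes on the lists, 589 were found. Lists of other cell types gave, over all B cells, 1 of 1 neutrophil and 1 of 1 lymphatic endothelial gene higher, 1 of 1 myeloid gene lower, 7 of 14 fibroblast genes higher and 2 lower, and none past the fold among 6 blood endothelial, 1 T cell, 2 plasmacytoid dendritic and 2 red cell or salivary genes. Of 2 germinal centre genes 0 were past it.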

Additional observations from a re-analysis of the deposited data

Results flagged for a closer look

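Genes were flagged when past the fold in opposite directions in B cells and blood endothelial barcodes. Pyhin1, an interferon-inducible gene of the family of cytosolic DNA sensors, was flagged in this way. It was lower in SAH B cells, with 61 UMIs in sham and 17 in SAH, a fold of 0.502 (0.275 to 0.870), and 0.458 within the stromal limit. In blood endothelial barcodes it was higher, 4.07 CPM in sham and 9.35 CPM in SAH, a fold of 2.30 (1.87 to 2.82). Those levels are far below the 243 and 122 CPM of B cells. The Pyhin1 fold was 0.821 (0.273 to 2.07) in T cells and 0.844 (0.645 to 1.11) in barcodes of no class. The difference between the classes was not tested, since each class comes from 1 library per group.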

How the results depend on the processing

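No paired analysis was possible because each group has 1 library. The cause of the changes below was not tested. With at least 1000 detected genes the B cell shares were 0.227% in sham and 0.161% in SAH, and at the 5% mitochondrial limit 0.143% and 0.216%. Higher genes, 126 in the main result, numbered 68 at the 5% mitochondrial limit, 47 within the stromal limit, 62 without the 5 deepest B cells per library, 36 after thinning, and 232, 44 and 338 with gene minimums of 10, 100 and none. Lower genes, 131 in the main result, numbered 82, 52, 73 and 36 under the same first 4 settings, 210, 43 and 221 under the 3 gene minimums, and 205 with TMM scaling. The smaller sets of cells also hold fewer measured genes.

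At the 5% mitochondrial limit (9 sham and 18 SAH cells) the median log2 fold was 0.87 for B-lineage genes, 1.07 for B cell receptor signalling, 0.72 for follicular, -0.74 for MHC class II, -1.25 for Toll-like receptor, -0.36 for oxidative phosphorylation and -1.46 for cell cycle genes. These medians rest on 6, 3, 4, 7, 2, 17 and 2 measured genes, in that order. With at least 1000 genes the median was 0.33 for follicular and 0.63 for chemokine and egress genes (5 measured in each list). With doublet calls removed, which took out 5 sham and 0 SAH B cells, it was -0.43 for germinal centre genes (1 measured). For plasma cell genes it was 0.16 (3 measured), the reverse of -2.16 (12 measured). For cell cycle genes it was -1.23 after thinning, -1.17 at a minimum of 100 UMIs and 0.055, reversed, with no minimum.

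Folds of single genes turned direction in 36 cases, while 120 others moved by more than their counting interval and 620 did not. With doublet calls removed they were 1.53 for Zbp1, 1.42 for Xbp1, 1.11 for Fabp4, 1.11 for Mzb1, 6.13 for Jchain, 4.60 for Creld2 and 1.23 for Ssr4. Within the stromal limit they were 0.694 for Gsn, 1.21 for Zbp1, 2.16 for Fabp4, 1.23 for Mzb1, 0.810 for Ahnak, 0.729 for S100a6, 2.43 for Jchain and Creld2, 0.374 for Fosb and 0.607 for Mt1. Without the 5 deepest B cells they were 1.07 for Zbp1, 1.37 for Xbp1, 1.08 for Mzb1, 2.14 for Jchain, 4.27 for Creld2 and 0.237 for Fosb. After thinning they were 1.07 for Mzb1, 1.13 for Creld2 and 0.750 for Gbp2. At the 5% mitochondrial limit they were 1.37 for Prkcb, 2.54 for Fcer2a, 1.95 for Cxcr4, 1.04 for Gpr18, 0.960 for Egr1 and 0.988 for Atp5e. With at least 1000 genes Prkcb was at 1.09, and with at least 3 marker UMIs Rsad2 was at 0.432, Ly6a at 0.903 and Iigp1 at 0.576. Some of these folds rest on very few UMIs. Jchain had 1 UMI in each library within the limit, and its other folds in this paragraph rest on few UMIs as well. H2-T23, Ifi27l2a, Ly86, Hist1h2ap, Klf2, H2-Eb1, Ccr7 and Cd69 kept their direction under all 11 settings run for single genes. Most of the 72 genes run were likewise not among those that turned. The settings are subsets or rescalings of the same cells, from 1 library per group, and are not independent checks.

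Depth limits the rest: most B cell genes have under 30 UMIs, and 1 pool per group gives no spread between mice.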

Other observations

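Chemokine and lipid carrier transcripts of stromal cells were found in B cells within the stromal limit. Ccl21a, the ligand of CCR7 made by lymphatic and reticular cells, was detected in 36.4% of the sham and 68.8% of the SAH B cells there, against 48.2% and 82.2% of blood endothelial barcodes. Apoe was detected in 46.6% and 75.0%, against 82.7% and 95.4%. Their folds within the limit were 2.64 and 2.31, against 1.80 and 1.75 in blood endothelial barcodes. These shares, which are not thinned, are below those of the endothelial barcodes in both libraries. Median depths were 1882 and 2219 UMIs in B cells within the limit and 4753 and 4871 UMIs in endothelial barcodes. The shares are therefore not compared at equal depth, and the part of free RNA in them was not tested.

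Gm42418, a predicted gene that overlaps a ribosomal RNA repeat, was the most abundant gene in B cells, at 50956 CPM in sham and 40728 CPM in SAH, and its fold of 0.799 lay beside 0.804 in blood endothelial barcodes.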
